A study of Bos grunniens with 18 samples.

Results

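The genes examined here are those that the deposited table of yak (*Bos grunniens*) whole blood assigns to the KEGG cell cycle pathway. The table lists 20607 genes, of which 142 carry this annotation. A gene was kept if it had 10 or more counts in at least 6 libraries, and *TGFB1* was left out by name, which gave 133 genes, all of which were tested. Of these, 118 reached 10 counts in all 18 libraries and 15 did not, and 0 reached it in libraries of 1 stage only. The blood came from female yaks of 4 to 8 years at 3 reproductive stages, with 6 libraries per stage. Y-A is the anestrus group, Y-E the group in estrus, and Y-P the pregnant group. The 6 cows were followed through the stages. Estrus was brought about with a progesterone pessary, prostaglandin F2 alpha and GnRH before timed insemination. Y-E therefore differs from Y-A by this treatment as well as by stage. The pregnant group was sampled after the treatment and the insemination, and so differs from Y-A by these as well.

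The cell cycle is driven by cyclin-dependent kinases, which are switched on by cyclins and held back by CDK inhibitors. Cyclin D kinases release E2F transcription factors from RB family proteins, E2F factors bound to a DP partner then drive genes for DNA replication, origins are licensed by ORC and the MCM helicase, and the anaphase-promoting complex (APC/C) and the SCF complex mark cyclins and other proteins for destruction. Mature granulocytes and most circulating lymphocytes do not divide, and many of these proteins also have work outside division, in transcription, signaling or protein turnover.

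Each gene was placed in 1 of 14 role groups by its symbol (96 genes) or, for the 32 genes that the table gives without a symbol, by its KEGG orthology entry. The other 5 genes (*FAM200A*, *SNPH*, *SSNA1*, *TTC28* and *ZBTB49*) are annotated to the pathway without a clear place in it. Of the 133 rows, 4 are annotated as pseudogenes. The count rule left out 8 annotated genes. *CCND1*, which encodes cyclin D1, was among these 8, with 10 or more counts in 1 library where the rule asks for 6. ENSBGRG00000014970, annotated as a CDK inhibitor of the p57 type, was just inside it with 10 counts in 6 libraries, 1 of Y-A and 5 of Y-P.

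Levels are given as CPM, the counts scaled to a common library total and here normalized by TMM. Total counts lay between 30247267 and 48401076 per library. The most that an observed 0 allows, 3 counts, therefore corresponds to 0.0620 to 0.0992 CPM by library total alone, without TMM. This limit covers counting error only. Hemoglobin complex genes, 6 in number, accounted for 3.10% to 16.7% of a Y-A library, 0.0899% to 8.36% of a Y-E library and 0.0272% to 0.376% of a Y-P library. Y-E replicate 6 stood apart from its stage at 8.36%, since the other Y-E libraries lay between 0.0899% and 0.713%. For several results that change without it, the value without it is given as well. Of the marker genes of reticulocytes, the youngest circulating red cells, 8 of 11 tested were lower in Y-P than in Y-A and 7 of 11 lower than in Y-E. Of the neutrophil markers, 5 of 7 were lower in Y-P than in Y-E, and of the T cell markers 3 of 6 were higher. Without Y-E replicate 6, these counts against Y-E became 2 of 11 for reticulocytes, 6 of 7 for neutrophils and 1 of 6 for T cells. The summed neutrophil markers ranged from 4565 to 10395 CPM in Y-A, from 5926 to 13776 CPM in Y-E and from 3575 to 6938 CPM in Y-P, and the summed T cell markers from 924 to 1212, from 882 to 1190 and from 988 to 1870 CPM. The summed reticulocyte markers ranged from 869 to 12841 CPM in Y-A, from 496 to 5703 CPM in Y-E and from 347 to 430 CPM in Y-P, where *DMTN* had 0 counts in every library and *HBM* and *SLC4A1* had 0 in some. Of the platelet markers, 1 of 3 tested was lower in Y-P in both comparisons, and their sum, at 153 to 208 CPM in Y-P, lay below Y-A (277 to 366 CPM) and Y-E (239 to 388 CPM) without overlap. Of the monocyte markers, 1 of 5 was lower in Y-P than in Y-E and 0 lower than in Y-A, and the sum was 805 to 1452 CPM in Y-A, 737 to 1768 CPM in Y-E and 480 to 1269 CPM in pregnancy. Markers of B cells, plasma cells and NK cells had 0 calls in the pregnancy comparisons. The B cell markers had a median log2 fold change of 0.55 against Y-E (6 above 0 and 1 below), beside 0.44 for the T cell markers. Of all genes, 3.56% were lower in Y-P than in Y-A and 8.71% lower than in Y-E, and 2.2% and 5.8% were higher. Markers of neutrophils, T cells and B cells were present in every library, as in whole blood. In whole blood, fewer cells of a type and less RNA per cell cannot be told apart, and the part that these shifts have in the changes given next was not tested.

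Levels of the cell cycle genes spanned a wide range. By mean FPKM over the 18 libraries, a scale that takes account of gene length, 14 genes were at 60 or above, 52 between 10 and 60, 52 between 1 and 10, and 15 under 1. The highest was *CCND3*, which encodes cyclin D3, at 314 FPKM, followed by 2 rows described as 14-3-3 proteins, ENSBGRG00000009704 at 305 FPKM and ENSBGRG00000014421 at 237 FPKM. *CDC25B*, a phosphatase that activates CDKs, stood at 121 FPKM, the cohesin subunit gene *RAD21* at 112 FPKM, and *CDKN1B*, which encodes the inhibitor p27, at 100.3 FPKM. Among genes of dividing cells, *CDK1*, the mitotic kinase, was at 4.67 FPKM, *CCNA2*, cyclin A2, at 4.23 FPKM, and *BUB1*, a spindle checkpoint kinase, at 4.10 FPKM, whereas the replication genes *MCM7* and *PCNA* were at 52.0 and 42.9 FPKM and the mitotic kinase gene *PLK1* at 16.1 FPKM. By role, the median level was highest for the 14-3-3 proteins (53.7 FPKM) and the coactivators and *MYC* (53.6 FPKM), and among the named groups lowest for the cyclins (3.37 FPKM) and the CDK inhibitors (3.67 FPKM), the same groups that hold the very high *CCND3* and *CDKN1B*. The median SD of log2 CPM within a stage was 0.276 for the 133 genes, beside 0.335 for all 14508 genes tested, which have other levels.

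**Figure D1:**
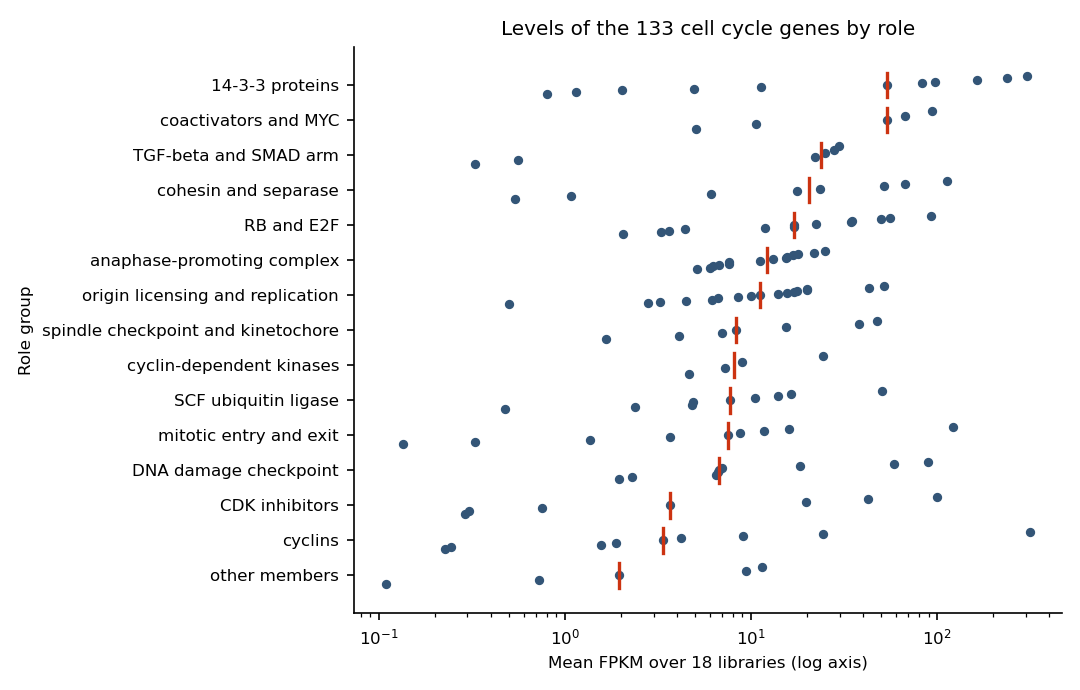
Mean FPKM over 18 libraries (log axis) of each of the 133 cell cycle genes, in rows by role group; each point is a gene and the red line the median of its group. The cyclins span from under 1 FPKM to *CCND3* at 314 FPKM, whereas all 14 genes of the anaphase-promoting complex lie between 5.12 and 25.1 FPKM.

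As a share of all counts, the cell cycle genes were of similar size in the stages. Their part was 0.788% to 0.909% for Y-A (median 0.866%), 0.845% to 0.923% for Y-E (median 0.868%) and 0.827% to 0.992% for Y-P (median 0.957%). The ranges overlap, with 4 Y-P libraries above every library of the other stages and Y-P replicates 2 and 3 (0.839% and 0.827%) among the lowest. All counts here include those of hemoglobin, which took 3.10% to 16.7% of a Y-A library and at most 0.376% of a Y-P library. Hemoglobin counts lower the share of every other gene, and their part in the order of the libraries was not tested.

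The comparisons ask how blood expression differs between the reproductive stages, and each used edgeR's quasi-likelihood test over all 14508 genes, with a gene called at a Benjamini-Hochberg adjusted p under 0.05. Between estrus and anestrus, 0 of the 133 genes were called, beside 0.0207% of all genes tested (0.0138% with a log2 fold change of 1 or more in size, where the genes also gave 0). DESeq2 and limma called 0 as well, and 3 genes had an unadjusted p under 0.05 in edgeR (2.26%, beside 6.18% of all genes). These were *CDKN2D*, which encodes the CDK4 and CDK6 inhibitor p19, at a log2 fold change of 0.61 (SE 0.21, adjusted p = 0.518), *GADD45A*, a stress-induced gene, at 0.36 (SE 0.16, adjusted p = 0.774), and *ANAPC7* of the APC/C at -0.21 (SE 0.09, adjusted p = 0.676). The median log2 fold change of the 133 genes was -0.05, beside -0.01 for all genes.

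In pregnancy, 8 genes (6.02%) were called against anestrus, beside 5.76% of all genes tested: 2 were higher and 6 lower, where 2.2% of all genes were higher and 3.56% lower. Against estrus 20 genes (15.0%) were called, beside 14.5% of all genes, with 12 higher and 8 lower, where 5.8% of all genes were higher and 8.71% lower. Both shares are close to those of all genes, so the numbers of calls do not set the cell cycle genes apart. The study also asks for a log2 fold change of 1 or more in size, which left 2 genes in each pregnancy comparison (beside 1.35% and 2.62% of all genes): *TFDP2* in both, *Cdc25A* against Y-A and *E2F3* against Y-E. The pregnancy comparisons share the Y-P libraries and are not independent of each other. In all 21 genes were called in either, and 7 of them in both. The median log2 fold change was -0.02 against Y-A (0.03 for all genes) and 0.09 against Y-E (0.04 for all genes). The direction of the calls depended on the scaling. With library size as the only scaling, which moved the median of all genes to 0.19 and 0.18, 15 genes were higher and 5 lower against Y-A, and 22 higher and 6 lower against Y-E. None of the calls described next changed sign under that or any other setting tried.

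**Figure D2:**
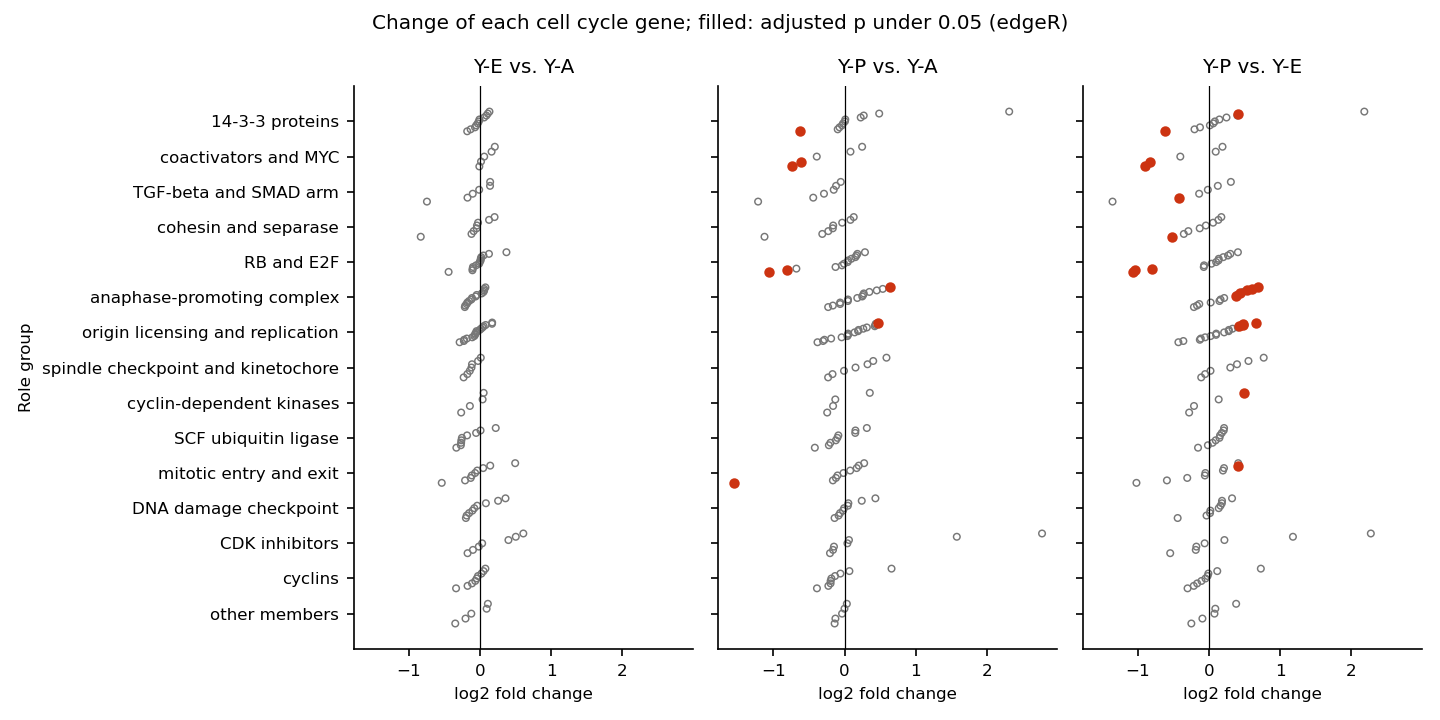
Log2 fold change (horizontal axis, edgeR) of each of the 133 cell cycle genes in the 3 comparisons, in rows by role group; filled red points have an adjusted p under 0.05 and open grey points do not. No point is filled for Y-E vs. Y-A, and in the pregnancy comparisons the filled points of the RB and E2F group and of the coactivators lie to the left of 0 and those of the anaphase-promoting complex and of replication to the right.

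The RB and E2F group, the switch into DNA synthesis, held 13 genes. Of these 0 were higher in Y-P in either comparison, 2 were lower than in Y-A and 3 lower than in Y-E. Of all genes, 3.56% were lower than in Y-A and 8.71% lower than in Y-E, and 2.2% and 5.8% were higher. *TFDP2*, which encodes DP-2, a DP partner with which E2F proteins bind DNA, lies on chromosome 1 from 138178384 to 138327719 in the coordinates of the deposited table. Its level was lowest, median and highest at 92.9, 114 and 153 CPM in Y-A, at 91.2, 129 and 132 CPM in Y-E and at 38.8, 58.2 and 72.9 CPM in Y-P. Every pregnant library lay below every other library. The gene was 2.08-fold lower than in Y-A (log2 fold change -1.06, SE 0.14, adjusted p = 0.000854) and 2.09-fold lower than in Y-E (-1.07, SE 0.14, adjusted p = 0.000253), while Y-E and Y-A differed by 0.01 (SE 0.14). *TFDP1*, which encodes the other DP partner in the list, DP-1, ranged from 33.4 to 50.1 CPM in Y-A, from 37.1 to 46.1 CPM in Y-E and from 43.8 to 60.6 CPM in Y-P and was not called (log2 fold change 0.29, adjusted p = 0.129 against Y-A, and 0.30, adjusted p = 0.0775 against Y-E, SE 0.11 each), though with library size as the only scaling it was called higher (adjusted p = 0.0328 and 0.0213). *E2F2*, an activating E2F (chromosome 2, 7815825 to 7841088), ranged from 48.1 to 91.9 CPM in Y-A (median 58.4), from 52.5 to 73.9 CPM in Y-E (median 70.3) and from 32.7 to 44.8 CPM in Y-P (median 37.5). Again no pregnant library reached the range of the other stages, and within Y-A replicates 5 and 6 were well above the rest at 91.9 and 91.2 CPM. The log2 fold change was -0.81 against Y-A (SE 0.16, adjusted p = 0.00773) and -0.80 against Y-E (SE 0.16, adjusted p = 0.00258).

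*E2F3*, the other activating E2F in this pattern (chromosome 24, 40751499 to 40847747), was much less abundant. It ranged from 9.64 to 20.8 CPM in Y-A (median 13.4), from 15.0 to 22.4 CPM in Y-E (median 19.1) and from 5.85 to 14.05 CPM in Y-P (median 9.19). Y-P lay wholly below Y-E but overlapped with Y-A. It was 2.07-fold lower than in Y-E (log2 fold change -1.05, SE 0.22, adjusted p = 0.00457), and against Y-A the difference of -0.68 (SE 0.22) had an adjusted p of 0.0740 that became 0.0338 with a block for the cow. *E2F1*, the remaining activating E2F, stayed within its own spread, with medians of 5.46, 5.05 and 5.99 CPM in the order of the stages (adjusted p = 0.810 and 0.523 for the pregnancy comparisons). The repressive side of the switch was not called either: *RBL2*, which encodes p130, differed by 0.04 (SE 0.12) and 0.03 (SE 0.12), *RB1* by -0.13 (SE 0.15) and -0.07 (SE 0.15), and *E2F4* by 0.15 (SE 0.10) and 0.13 (SE 0.10) on the log2 scale. *HDAC1*, a histone deacetylase recruited by RB and the most abundant gene of the group at 92.8 FPKM, differed by 0.05 and -0.08 (SE 0.10 each).

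The reticulocyte markers, lower in Y-P as given above, had a median log2 fold change of -1.59 between Y-E and Y-A with 0 of 11 called, and of -3.27 with 3 called, all lower in Y-E, when Y-E replicate 6 was left out. The part of red cells in the values of the E2F group was not tested. A further edgeR fit left out Y-A replicate 6 and Y-E replicate 6, which had the highest hemoglobin shares of their stages. This pair was chosen after seeing the data. There *TFDP2* and *E2F2* remained called in both pregnancy comparisons (adjusted p = 0.00121 and 0.0146 against Y-A, 0.000230 and 0.00177 against Y-E). The other Y-A libraries still held 3.10% to 12.1% hemoglobin, beside at most 0.376% in Y-P. That fit therefore cannot separate stage from the hemoglobin share.

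The group of coactivators and *MYC* had 5 genes, and 2 of them were called lower in pregnancy in both comparisons. Of all genes, 3.56% were lower than in Y-A and 8.71% lower than in Y-E. *EP300*, which encodes the histone acetyltransferase p300 (chromosome 5, 120636115 to 120703924), ranged from 558 to 716 CPM in Y-A (median 623), from 576 to 817 CPM in Y-E (median 715) and from 241 to 517 CPM in Y-P (median 398). All 6 pregnant libraries were below all others, and they were also the most spread out. The log2 fold change was -0.74 (SE 0.16, adjusted p = 0.0143) against Y-A and -0.90 (SE 0.16, adjusted p = 0.00150) against Y-E. Its relative *CREBBP*, which encodes CBP (chromosome 26, 44361960 to 44470903), ranged from 487 to 707 CPM in Y-A (median 538), from 569 to 745 CPM in Y-E (median 660) and from 213 to 503 CPM in Y-P (median 396). Y-P lay below Y-E, while Y-P replicate 1 at 503 CPM overlapped with Y-A. The log2 fold change was -0.83 against Y-E (SE 0.18, adjusted p = 0.00485) and -0.62 against Y-A (SE 0.18, adjusted p = 0.0456). The call against Y-A held in 5 of the 18 fits that left out 1 library. It was lost without Y-A replicates 1, 2, 4, 5 or 6, without Y-E replicates 2, 3, 4 or 5 and without Y-P replicates 2, 3, 4 or 5. *MYC*, a transcription factor that drives growth and division, was at medians of 150, 129 and 156 CPM and was not called (log2 fold change 0.25, SE 0.19, and 0.19, SE 0.18).

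The 14-3-3 proteins, which bind phosphorylated partners such as CDC25 phosphatases, moved in different directions. *YWHAG* (14-3-3 gamma, chromosome 26, 9009116 to 9033009) held to a narrow range before pregnancy, from 156 to 173 CPM in Y-A (median 166) and from 157 to 173 CPM in Y-E (median 163), and ranged from 94.8 to 133 CPM in Y-P (median 103). No pregnant library overlapped with the others. It was 1.54-fold lower in both comparisons (log2 fold change -0.63, SE 0.08, adjusted p = 0.000854 against Y-A, and -0.62, SE 0.08, adjusted p = 0.000253 against Y-E). *YWHAQ* (14-3-3 theta) ranged from 69.0 to 98.9 CPM in Y-A, from 66.1 to 81.3 CPM in Y-E and from 83.3 to 117 CPM in Y-P, above Y-E without overlap. Its log2 fold change against Y-E was 0.40 (SE 0.11, adjusted p = 0.0227), a call lost without Y-E replicates 2 or 5 or Y-P replicates 3 or 5, and also without Y-A replicate 6 and Y-E replicate 6 together (adjusted p = 0.0664). The 2 most abundant rows of the family were not called (ENSBGRG00000009704 at -0.07 and -0.13, SE 0.10 each, and ENSBGRG00000014421 at 0.23 and 0.24, SE 0.12 each), and since 7 rows share the orthology entry of *YWHAQ*, counts of close copies may be split between rows. *SFN* (14-3-3 sigma), an epithelial member, had 0 to 76 counts in Y-A, 0 to 98 in Y-E and 26 to 235 in Y-P. Its fitted log2 fold changes of 2.31 and 2.18 were not called (adjusted p = 0.183 and 0.157), and the ranges overlapped.

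The APC/C, the ubiquitin ligase that ends mitosis and also keeps cyclins low in resting cells, had 14 genes. Of these, 5 were higher in Y-P than in Y-E, beside 5.8% of all genes, and 1 higher than in Y-A, beside 2.2% of all genes. The number called lower was 0 in both, beside 8.71% and 3.56% of all genes. Against Y-E and Y-A, 3 and 4 of the 14 genes had a log2 fold change below 0. The median log2 fold change was 0.30 against Y-E, beside 0.04 for all genes, and 0.21 against Y-A, beside 0.03. These medians were 0.44 and 0.38 with library size as the only scaling, beside 0.18 and 0.19 for all genes, and the number called lower was 0 there as well. *ANAPC5*, a scaffold subunit (chromosome 16, 59418115 to 59457510), separated the stages most clearly. It ranged from 35.3 to 54.6 CPM in Y-A (median 45.9), from 37.9 to 49.4 CPM in Y-E (median 44.5) and from 66.9 to 75.0 CPM in Y-P (median 72.1). All pregnant libraries were above all others and close together. The log2 fold change was 0.65 against Y-A (SE 0.10, adjusted p = 0.00252) and 0.69 against Y-E (SE 0.10, adjusted p = 0.000460).

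*CDC16*, which encodes the subunit APC6, ranged from 38.6 to 50.5 CPM in Y-A, from 33.6 to 42.5 CPM in Y-E and from 48.7 to 67.6 CPM in Y-P. It lay above Y-E without overlap (log2 fold change 0.53, SE 0.10, adjusted p = 0.00262) and overlapped with Y-A (0.35, SE 0.10, adjusted p = 0.0512, and 0.0498 with a block for the cow). *CDC23*, which encodes APC8, ranged from 11.5 to 18.9 CPM in Y-A, from 10.6 to 14.9 CPM in Y-E and from 18.1 to 21.1 CPM in Y-P, again above Y-E without overlap (0.61, SE 0.14, adjusted p = 0.00723). It overlaps on its own strand with an unnamed gene, so its counts are less certain. *ANAPC4* (0.38, SE 0.13) and the row ENSBGRG00000006958, placed as APC10 (0.44, SE 0.14), were called against Y-E at an adjusted p of 0.0469 each. Their Y-P and Y-E ranges overlapped, and these calls were fragile: among the fits without 1 library, *ANAPC4* kept its call only without Y-A replicate 1, Y-A replicate 6, Y-E replicate 4, Y-E replicate 6 or Y-P replicate 2, and the APC10 row only without Y-A replicate 5, Y-E replicate 6 or Y-P replicate 1. *ANAPC13* was called against Y-E when Y-E replicate 6 was left out. The activators that give the APC/C its targets were not called: *CDC20*, used in mitosis, differed by -0.16 and -0.21 (SE 0.25 each), and *FZR1*, which encodes CDH1 and acts in resting cells, by -0.06 and -0.14 (SE 0.11 each).

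**Figure D3:**
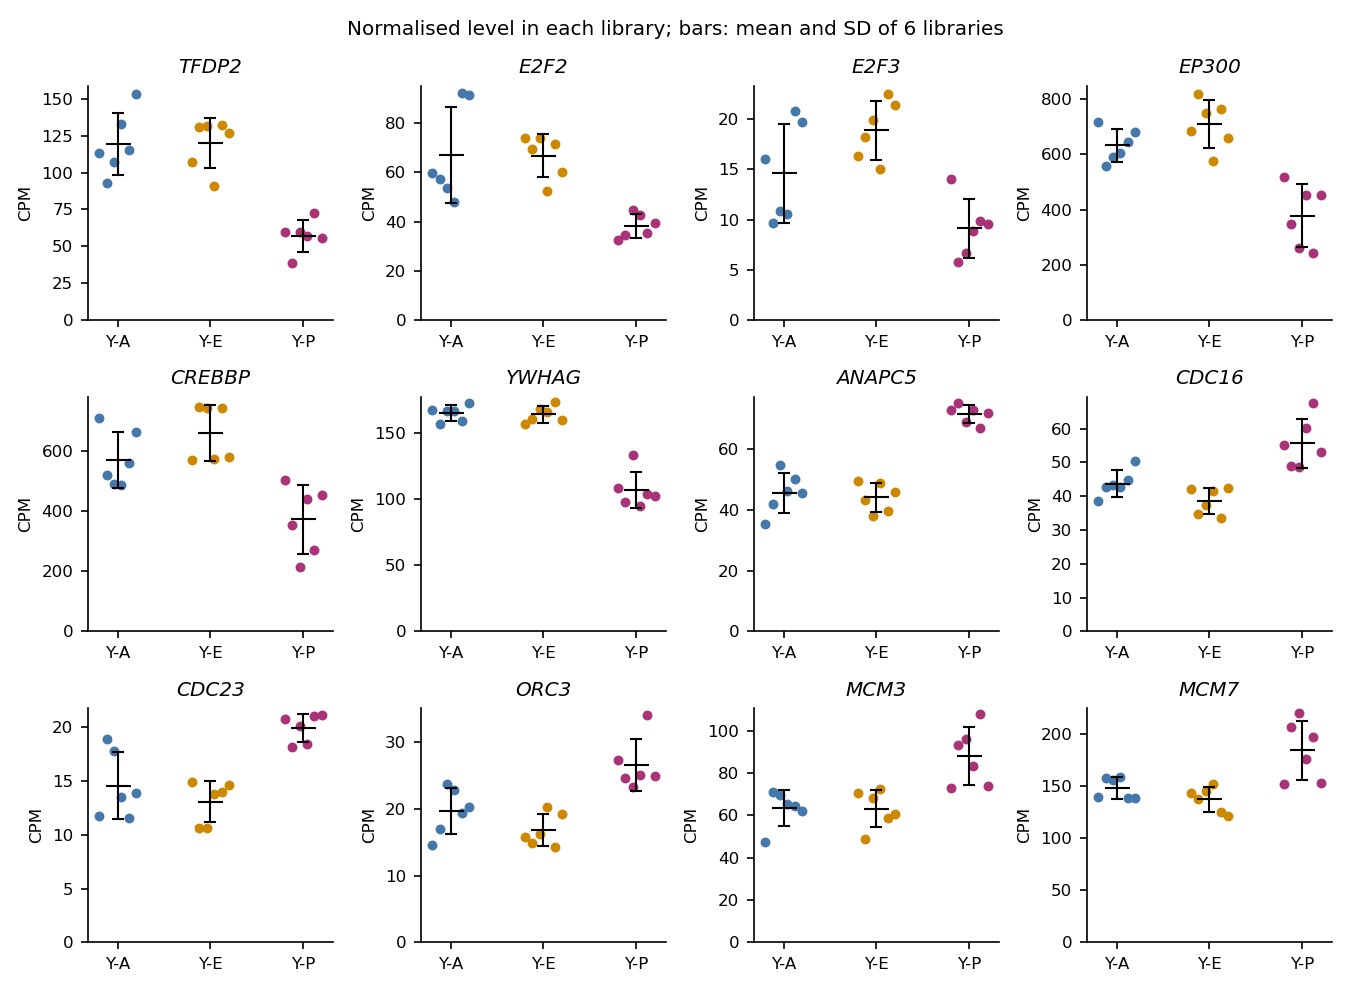
TMM-normalised level (CPM, vertical axes from 0) of 12 called cell cycle genes in each of the 6 libraries of Y-A, Y-E and Y-P; points are libraries, horizontal bars means and error bars SDs. The Y-P points of *TFDP2*, *E2F2*, *EP300* and *YWHAG* lie below all other points, and those of *ANAPC5* (66.9 to 75.0 CPM) above all others.

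Of the 17 genes for origin licensing and replication, 4 were higher in Y-P than in Y-E, 1 was higher than in Y-A, and 0 were lower. Of all genes, 5.8% were higher than in Y-E and 2.2% higher than in Y-A, and 8.71% and 3.56% were lower. *ORC3*, a subunit of the origin recognition complex (chromosome 10, 26914280 to 26991752), ranged from 14.6 to 23.7 CPM in Y-A, from 14.3 to 20.3 CPM in Y-E and from 23.3 to 34.1 CPM in Y-P. Y-P lay above Y-E without overlap and touched the Y-A range (log2 fold change 0.66, SE 0.14, adjusted p = 0.00387 against Y-E, and 0.43, SE 0.14, adjusted p = 0.0632 against Y-A). *MCM3*, a subunit of the replicative helicase (chromosome 24, 10126010 to 10143478), ranged from 47.5 to 71.3 CPM in Y-A, from 48.9 to 72.3 CPM in Y-E and from 73.0 to 108 CPM in Y-P, above both. Its log2 fold change was 0.48 against Y-E (SE 0.12, adjusted p = 0.0157) and 0.47 against Y-A (SE 0.12, adjusted p = 0.0336). The call against Y-A was lost without Y-A replicates 1, 5 or 6, without Y-E replicate 1 and without Y-P replicates 2, 3, 4 or 5.

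*MCM7*, a further helicase subunit, ranged from 139 to 159 CPM in Y-A, from 121 to 152 CPM in Y-E and from 152 to 220 CPM in Y-P (log2 fold change 0.42 against Y-E, SE 0.10, adjusted p = 0.00935). Its annotated span holds several other genes, among them *COPS6* on the other strand and *ZNF3* on the same strand, so its counts are less certain. Against Y-A the difference was 0.31 on the log2 scale (adjusted p = 0.0696, and 0.0474 with a block for the cow). *PCNA*, the sliding clamp of DNA polymerase, ranged from 37.2 to 46.2 CPM in Y-A, from 31.4 to 56.4 CPM in Y-E and from 45.3 to 82.8 CPM in Y-P (0.47 against Y-E, SE 0.15, adjusted p = 0.0360). Y-E replicate 6 and Y-P replicate 5 stood at the top of their stages. The call was lost without Y-E replicates 1, 2, 3, 4 or 5 or Y-P replicates 3 or 5. *MCM2*, of the same helicase, was not called (0.19 and 0.02, SE 0.18 each), nor were *MCM5* and *MCM6*. Whether the helicase genes differ from each other in their change was not tested. *CDC45*, which joins the helicase at firing origins, was at a log2 fold change of 0.40 against Y-E (adjusted p = 0.0734, and 0.0448 with a block for the cow).

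Within pregnancy the libraries were uneven in these groups. *EP300* was lowest in Y-P replicates 5, 3 and 2 (241, 262 and 346 CPM, others 451 to 517 CPM), and *CREBBP* in the same libraries (269, 213 and 352 CPM, others 441 to 503 CPM). *MCM3* was highest in them (108, 96.3 and 93.5 CPM, others 73.0 to 83.2 CPM), as was *MCM7* (197, 220 and 207 CPM, others 152 to 177 CPM). Y-P replicates 2, 3 and 5 also held the most counts of the stage, 40359672, 43123723 and 48401076, beside 30343748 to 33993445 in the others. The part of depth in this unevenness was not tested.

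**Figure D4:**
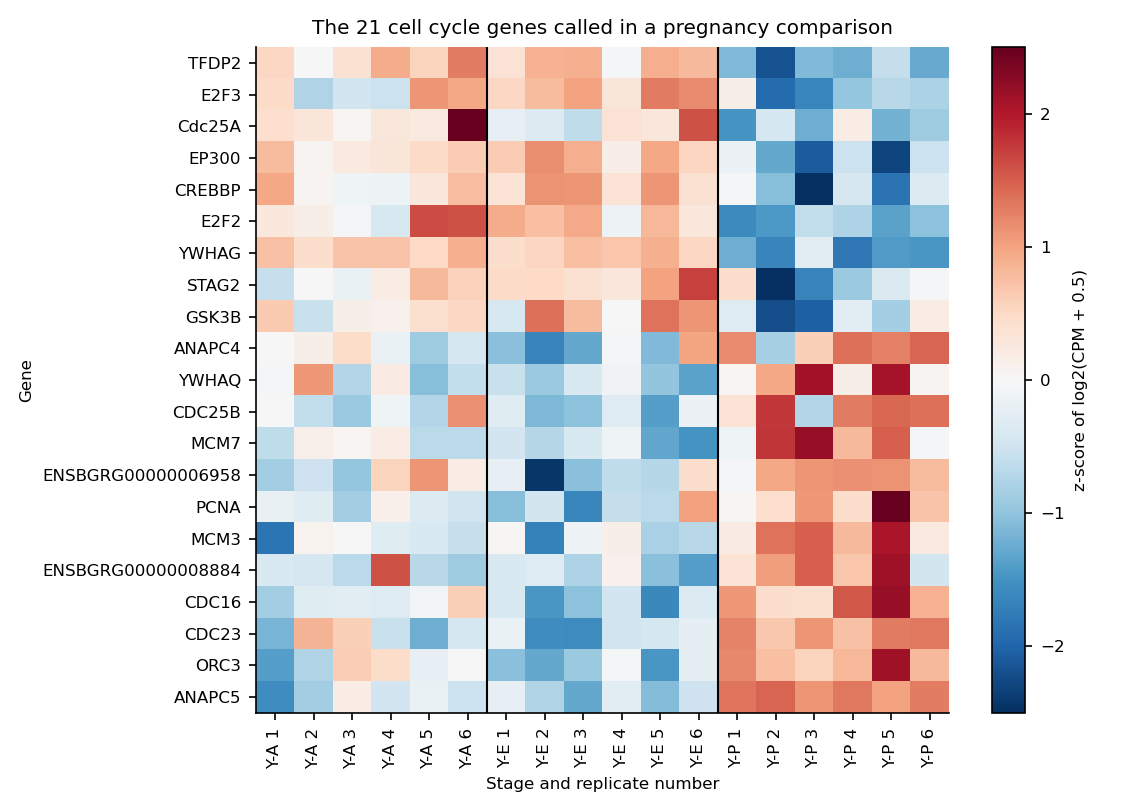
Level of the 21 cell cycle genes called in either pregnancy comparison, as z-scores of log2(CPM + 0.5) over the 18 libraries (columns, by stage and replicate number; genes in rows, ordered by log2 fold change of Y-P vs. Y-E). Red is above and blue below a gene's mean; *EP300* and *CREBBP* are bluest in Y-P replicates 3 and 5, where *MCM3* (96.3 and 108 CPM) is among its highest values.

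The kinases, cyclins and inhibitors at the center of the cycle form small groups. Of all genes, 5.76% were called against Y-A and 14.5% against Y-E, so few calls do not set such groups apart. Of 4 cyclin-dependent kinases, 1 was called: the row ENSBGRG00000008884, described as CDK4, ranged from 20.6 to 35.8 CPM in Y-A, from 18.5 to 25.8 CPM in Y-E and from 22.7 to 40.1 CPM in Y-P. The stages overlapped, and the log2 fold change of 0.50 against Y-E (SE 0.15, adjusted p = 0.0344) was lost without Y-E replicate 6 (adjusted p = 0.0670), Y-A replicate 1, Y-E replicates 1, 2, 3 or 5, or Y-P replicates 2, 3 or 5. *CDK6* (-0.16 and -0.21, SE 0.15 each), *CDK2* (-0.24 and -0.28, SE 0.14 each) and *CDK1* (-0.13 and 0.13, SE 0.33 each) were not called against Y-A or Y-E. Of the 9 cyclins, 0 were called in any comparison. *CCND3* ranged from 413 to 698 CPM in Y-A, from 374 to 813 CPM in Y-E and from 336 to 619 CPM in Y-P, ranges that overlap broadly (-0.20 and -0.22, SE 0.19 each). *CCND2* (cyclin D2) differed by -0.20 and -0.17 (SE 0.14 each), *CCNE1* (cyclin E1) by -0.23 and -0.30 (SE 0.18 each) and *CCNA2* by -0.06 and -0.11 (SE 0.29 each).

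Of the 7 CDK inhibitors, 0 were called, beside 5.76% of all genes against Y-A and 14.5% against Y-E. *CDKN1B* was even across stages, with medians of 239, 240 and 221 CPM. *CDKN1A*, which encodes p21, varied widely within stages, from 2.98 to 20.3 CPM in Y-A, and differed by -0.16 and -0.06 (SE 0.37 each). *CDKN2D* had the highest levels in Y-E, from 34.4 to 75.4 CPM (median 46.5), beside 21.9 to 43.8 CPM in Y-A (median 29.5) and 28.2 to 45.8 CPM in Y-P (median 31.6). Its log2 fold change of -0.55 in Y-P against Y-E (SE 0.21, adjusted p = 0.0804) passed the test without Y-E replicate 6 (adjusted p = 0.0476). The largest fitted increase of all 133 genes, 2.77 against Y-A, belonged to the p57-type row ENSBGRG00000014970, which had 0 to 11 counts in Y-A, 0 to 7 in Y-E and 9 to 26 in Y-P and was not called (adjusted p = 0.149). The row met the count rule through 5 Y-P libraries and 1 Y-A library, so the rule itself favored an increase. It is annotated as a pseudogene and overlaps the other p57-type row, ENSBGRG00000015190, on the same strand, so its counts are less certain.

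The groups of mitosis and of its checkpoints are small as well. Their calls stand beside 5.76% of all genes against Y-A and 14.5% against Y-E. Of the 9 genes of mitotic entry and exit, *CDC25B* was higher than in Y-E, from 307 to 469 CPM in Y-P (median 436) beside 276 to 340 CPM in Y-E (median 311) and 298 to 422 CPM in Y-A (median 328). The ranges overlapped, since Y-P reached down to 307 CPM (log2 fold change 0.41, SE 0.11, adjusted p = 0.0218), and the call was lost without Y-E replicates 2 or 5. *Cdc25A*, the phosphatase of the entry into S phase, was lower than in Y-A (-1.56, SE 0.43, adjusted p = 0.0410). It ranged from 3.01 to 14.3 CPM in Y-A (median 3.52), from 1.93 to 7.65 CPM in Y-E (median 3.04) and from 1.04 to 3.28 CPM in Y-P (median 1.47). Y-A replicate 6 alone held 14.3 CPM, the other Y-A libraries 3.01 to 3.81 CPM, and without that library the call was lost (log2 fold change -0.98 and adjusted p = 0.0578 with Y-E replicate 6 left out as well). It was also lost without Y-A replicate 5, Y-E replicate 5 or Y-P replicates 1, 2, 3, 5 or 6. *PLK1*, a mitotic kinase, was level at medians of 40.4, 42.7 and 39.7 CPM (-0.02 and -0.06, SE 0.11 each).

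None of the 7 spindle checkpoint and kinetochore genes passed the test, with *BUB1* at -0.17 and -0.06 (SE 0.20 each) and *BUB3* at 0.15 and 0.30 (SE 0.12 each). Their median log2 fold change was 0.30 against Y-E and 0.15 against Y-A, beside 0.04 and 0.03 for all genes. The median of the APC/C against Y-E was 0.30 as well. The row ENSBGRG00000023902, placed in this group by its orthology entry, was called against Y-E without Y-E replicate 6 (adjusted p = 0.0346) and with a block for the cow (0.00871), beside 0.0892 in the full fit. Of the 9 genes of the DNA damage checkpoint 0 were called, among them *ATM* (-0.06 and 0.14, SE 0.20 each) and *CHEK1* (0.05 and 0.16, SE 0.21 each). *GADD45A* was -0.44 against Y-E (SE 0.16), at an adjusted p of 0.0767 and of 0.0484 with a block for the cow. The 9 genes of the SCF complex had 0 calls as well. Beside 5.76% of all genes against Y-A and 14.5% against Y-E, 0 calls do not set groups of this size apart. Of 8 cohesin and separase genes, *STAG2*, a cohesin subunit on the X chromosome, was lower than in Y-E, from 161 to 335 CPM in Y-P beside 323 to 455 CPM in Y-E and 264 to 368 CPM in Y-A. The overlap was narrow (log2 fold change -0.52, SE 0.15, adjusted p = 0.0255). The call was lost without Y-E replicate 6 (adjusted p = 0.0569), Y-E replicate 5 or Y-P replicate 3. *RAD21* was not called (0.08 and 0.13, SE 0.12 each).

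The TGF-beta and SMAD arm can halt the cycle by raising CDK inhibitors. In this group 1 of 6 genes was called, against Y-E, beside 14.5% of all genes. That gene, *GSK3B*, is neither a TGF-beta nor a SMAD gene, and no TGF-beta or SMAD gene of the group was called. *GSK3B*, a kinase that marks cyclin D for export and breakdown, ranged from 44.3 to 55.5 CPM in Y-A, from 45.5 to 63.4 CPM in Y-E and from 32.4 to 50.9 CPM in Y-P, with overlap throughout (log2 fold change -0.43 against Y-E, SE 0.12, adjusted p = 0.0235). The call was lost without Y-E replicates 2 or 5 or Y-P replicate 3, and an unnamed gene overlaps *GSK3B* on the same strand. *SMAD3* (-0.05 and 0.12, SE 0.15 each) and *SMAD4* (-0.12 and -0.02, SE 0.08 each), which carry the TGF-beta signal to the nucleus, were not called. Among the 133 genes, 6 had Y-P and Y-A ranges that did not overlap, beside 3.56% of all genes, and 13 had Y-P and Y-E ranges that did not overlap, beside 6.03%. Between Y-E and Y-A the number was 0, beside 0.303%.

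Genes outside the annotation were examined as a pair of lists. Of 29 tested genes of proliferating cells, 0 were called higher in pregnancy, 2 were lower than in Y-A and 1 lower than in Y-E. Of all genes, 3.56% were lower than in Y-A and 8.71% lower than in Y-E, and 2.2% and 5.8% were higher. With so few genes, these counts do not set the list apart. The median log2 fold change of the list was -0.19 against Y-A and -0.12 against Y-E, beside 0.03 and 0.04 for all genes. Without Y-E replicate 6 the median against Y-E was -0.02 and 1 gene, *RRM1*, was called higher. *ANLN*, which encodes anillin of the cleavage furrow, was lower than in Y-A (log2 fold change -0.84, SE 0.17, adjusted p = 0.00977) and than in Y-E (-0.63, adjusted p = 0.0173), and *KIF20A*, a cytokinesis motor, lower than in Y-A (-0.52, SE 0.14, adjusted p = 0.0328). The most abundant of the list were *RRM1* (23.7 FPKM) and *TK1* (22.2 FPKM), which make deoxynucleotides. *RRM1* had an adjusted p of 0.0558 against Y-E, and of 0.0287 at a log2 fold change of 0.44 without Y-E replicate 6. *TK1* was not called, nor was *TOP2A* (0.09 and 0.17), the mitotic topoisomerase. Of 21 tested genes of quiescence, of the DREAM complex and of transcription-linked cyclins and kinases, 2 were lower than in Y-A, and 3 were lower and 1 higher than in Y-E (3 lower and 3 higher without Y-E replicate 6). These counts are as small, and stand beside the same shares of all genes. The median of this list was 0.01 against Y-A and 0.12 against Y-E. *CCNT2*, cyclin T2, was at -0.62 and -0.43 (adjusted p = 0.00364 and 0.00948), *CDK12* at -0.44 and -0.43 (adjusted p = 0.0146 and 0.0059), and *FOXO3*, a factor of quiescence, at -0.69 against Y-E (adjusted p = 0.0059), while *CDK8* was at 0.47 against Y-E (adjusted p = 0.0128). The most abundant of this list were *CCNI* (218 FPKM) and *CCNG1* (139 FPKM), atypical cyclins. *CCNI* was not called, and *CCNG1* was at 0.43 against Y-E (adjusted p = 0.162), and at 0.61 (adjusted p = 0.0388) without Y-E replicate 6.

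The libraries with the highest hemoglobin share of Y-A and Y-E stood out in a few cell cycle genes. Both carry replicate number 6, taken here to mark the same cow, so that the cow and the hemoglobin share cannot be told apart in them. In Y-A replicate 6 (16.7% hemoglobin) and Y-E replicate 6 (8.36%), the SKP1-type row ENSBGRG00000001048 of the SCF complex was at 325 and 253 CPM, beside 118 to 162 CPM and 97.5 to 137 CPM in the rest of their stages. *Cdc25A* was at 14.3 and 7.65 CPM in them and *CCNA2* at 10.8 and 12.4 CPM, whereas *SSNA1* was at 8.89 and 11.2 CPM, below the other libraries of both stages. In Y-P replicate 6, which held 0.376% hemoglobin, *SSNA1* was also the lowest of its stage at 11.9 CPM, and the RBX1-type row ENSBGRG00000006304 was the lowest of each stage in replicate 6, at 63.6, 63.4 and 60.7 CPM. In Y-P the margins were narrow, so replicate 6 did not stand apart there in these genes. *SSNA1* was at 12.8 CPM in Y-P replicate 1, and the RBX1-type row at 61.2 CPM in Y-P replicates 1 and 5. *SSNA1* overlaps *ANAPC2* on the other strand. Y-A replicate 1, with 12.1% hemoglobin, did not share this pattern, at 3.81 CPM of *Cdc25A*. These genes were singled out after their values were seen.

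**Figure D5:**
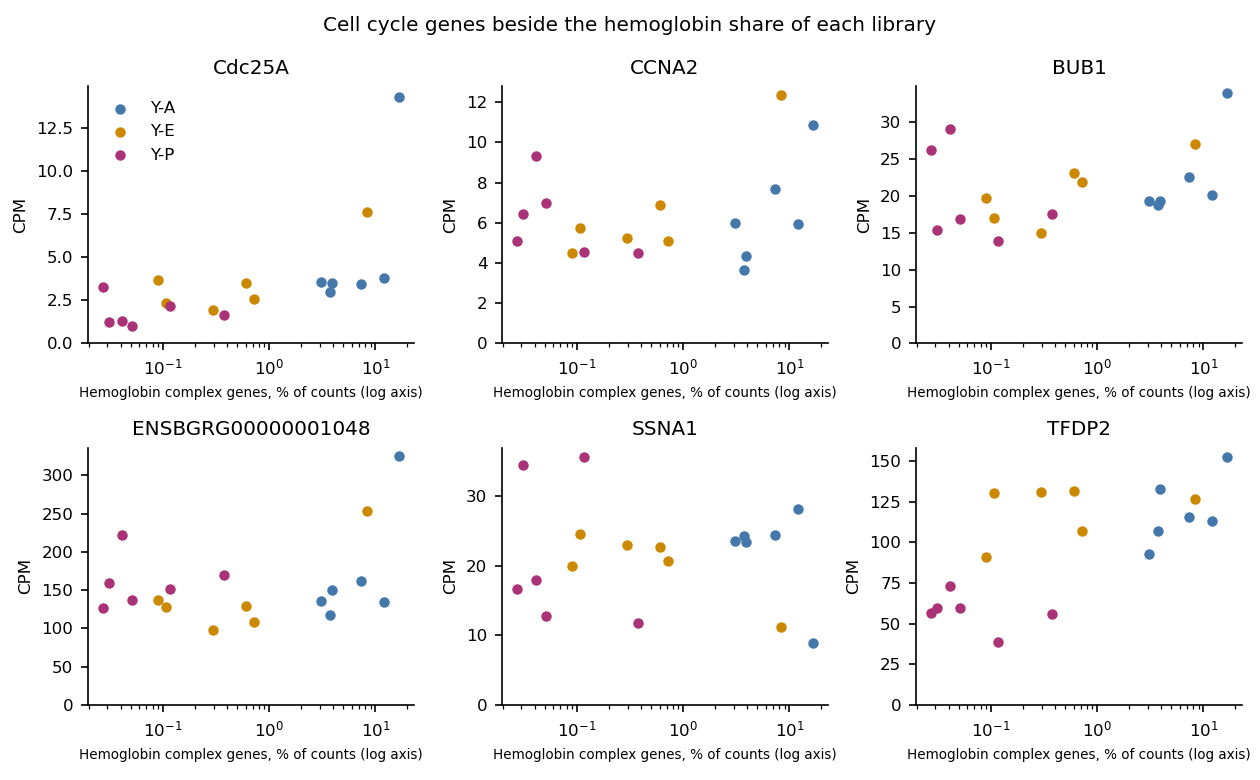
Level (CPM, vertical axes) of 6 cell cycle genes beside the share of counts taken by the hemoglobin complex genes (horizontal axes, %, log scale) in the 18 libraries, colored by stage. *Cdc25A* and the SKP1-type row ENSBGRG00000001048 are highest in Y-A replicate 6 (16.7%), and *TFDP2* is at 38.8 to 72.9 CPM in the 6 Y-P libraries and at 91.2 CPM or more in all others.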

How the data were processed

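Whole blood RNA was sequenced as poly(A)-selected, dUTP-stranded, paired-end libraries. The authors trimmed the reads with cutadapt 1.9, aligned them with HISAT2 2.2.1 and assembled and quantified transcripts with StringTie 2.1.6 and ballgown. The authors deposited FPKM values and whole-number counts per gene for 18 libraries. The making of the counts is not given in the sources used here, and the genome is named only by its Ensembl version.

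Libraries were grouped by their titles, 6 per stage. In R 4.3.3, edgeR 4.0.16 was run on the deposited counts (TMM, filterByExpr by stage, robust quasi-likelihood fit over all 18 libraries with stage as the only factor, two-sided tests, Benjamini-Hochberg over 14508 genes per comparison). Alternatives used DESeq2 1.42.0, and limma 3.58.1 on log2(FPKM + 1) and log2(FPKM + 0.1). Tests were checked on simulated counts. Tables and figures used Python 3.11.15, pandas 2.3.3, numpy 2.4.6 and matplotlib 3.10.9.

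The members, role groups and lists were chosen with earlier results of these data known. Named genes were the called members, the 2 with the highest mean FPKM of each role group, a fixed list of core cell cycle genes and, of the outside lists, the 2 most abundant genes and *TOP2A*. Genes named beyond this were chosen after their values were seen. Not every gene the rule selects is reported here.

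The replicate numbers were taken to mark the cows, since the study followed 6 cows, although the labels do not say so. Deviations from the stage means of same-numbered libraries correlated at 0.112 to 0.653 between Y-A and Y-E, at -0.0715 to 0.484 between Y-A and Y-P and at -0.0819 to 0.492 between Y-E and Y-P. The highest value of each comparison was that of replicate 6. No promoter, protein or genome sequence was used.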

Additional observations from a re-analysis of the deposited data

Results flagged for a closer look

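A search for libraries far from the rest of their stage covered 174 sets of 6 values (58 named genes in 3 stages), and 16 were found in which the gap of the highest or lowest library to its neighbor exceeded, as a share of the range, Dixon's critical value. Chance gives about 1 in 20 such sets. Several lie in Y-A replicate 6 and Y-E replicate 6, which had the highest hemoglobin shares of their stages and carry the same replicate number, taken to mark 1 cow. What connects them was not tested.

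In Y-A replicate 6, *Cdc25A* was at 14.3 CPM (others 3.01 to 3.81), *BUB1* at 33.9 CPM (others 18.7 to 22.5), the SKP1-type row ENSBGRG00000001048 at 325 CPM (others 118 to 162), the RBX1-type row ENSBGRG00000006304 at 63.6 CPM (others 82.8 to 90.7) and *SSNA1* at 8.89 CPM (others 23.4 to 28.2). In Y-E replicate 6, *Cdc25A* was at 7.65 CPM (others 1.93 to 3.66), *CCNA2* at 12.4 CPM (others 4.49 to 6.86), *PCNA* at 56.4 CPM (others 31.4 to 40.6), ENSBGRG00000001048 at 253 CPM (others 97.5 to 137) and *SSNA1* at 11.2 CPM (others 19.9 to 24.6).

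In Y-P replicate 5, *PCNA* was at 82.8 CPM (others 45.3 to 57.0), *ORC3* at 34.1 CPM (others 23.3 to 27.3) and *CDK1* at 10.4 CPM (others 3.06 to 5.56). In Y-P replicate 3, *YWHAG* was at 133 CPM (others 94.8 to 108). In Y-P replicate 1, the APC10-type row ENSBGRG00000006958 was at 10.6 CPM (others 12.5 to 13.3). In Y-A replicate 4, the CDK4 row ENSBGRG00000008884 was at 35.8 CPM (others 20.6 to 23.1).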

How the results depend on the processing

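The 0 calls between Y-E and Y-A held in every setting tried. For Y-P vs. Y-A, the 8 calls (2 higher, 6 lower) became 20 with library size as the only scaling (15 higher, 5 lower), 16 with DESeq2 (9 higher, 7 lower), 25 with limma on log2(FPKM + 1) (21 higher, 4 lower), 22 with limma on log2(FPKM + 0.1) (18 higher, 4 lower), 5 with only these stages in the fit (1 higher, 4 lower) and 5 (1 higher, 4 lower) without Y-A replicate 6 and Y-E replicate 6, an alternative chosen after seeing the data. They ranged from 5 to 10 when 1 library was left out, with 5 without Y-A replicate 5, Y-A replicate 6, Y-P replicate 2 or Y-P replicate 5. For Y-P vs. Y-E, the 20 calls (12 higher, 8 lower) became 37 (31 higher, 6 lower) and 36 (30 higher, 6 lower) with limma (pseudocounts 1 and 0.1). They ranged from 12 (without Y-E replicate 5) and 13 (without Y-E replicate 2) to 22 when 1 library was left out. Without Y-E replicate 6 they were 22 (14 higher, 8 lower). Of calls with a log2 fold change of 1 or more in size, the 2 against Y-A became 1 with library size only, without the low-count filter, with limma on log2(FPKM + 1), with only these stages and without both replicate 6 libraries, and the 2 against Y-E became 0 with library size only, 1 with limma on log2(FPKM + 1) and 3 with limma on log2(FPKM + 0.1). All of these limma calls (2 against Y-A at a pseudocount of 0.1) were higher in Y-P, whereas the calls of edgeR were lower, so they are other genes. Each ranged from 0 to 3 when 1 library was left out, with 0 without Y-P replicate 2. The cause was not tested.

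With the replicate block for the cow, the calls were 11 against Y-A (*E2F3*, *CDC16* and *MCM7* added) and 23 against Y-E (*GADD45A*, *CDC45* and ENSBGRG00000023902 added), and 0 were lost. Of the 174 pairs of named gene and comparison, 28 were called, and 0 reversed in any setting. The 3 calls against Y-A and 8 against Y-E that were lost without some library are the less certain ones. Counts at the low end limit the p57-type rows and *SFN*, whose ranges include 0.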
